A study of Mus musculus with 24 samples.

Results

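The GDNF family genes described here are the 4 co-receptor genes Gfra1, Gfra2, Gfra3 and Gfra4, the receptor tyrosine kinase gene Ret, and the ligand genes Gdnf, Nrtn (neurturin) and Artn (artemin), 8 of the 63862 genes listed in the deposited tables. The set was picked from the measured values, because Gfra2 was lower at day 14 than at day 7 of culture. That contrast is therefore given as a description with no test for any member. The remaining comparisons were not used for the choice and were tested. Each member was found by its symbol and its Ensembl identifier.

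The study sequenced mRNA of mouse lacrimal gland (LG), the exocrine gland that makes tear fluid, and of lacrimal gland stem cell (LGSC) spheres, all from C57BL/6 mice with no genetic change named. LGSCs were dissociated from LG of mice of 6 to 8 weeks, grown in Matrigel in serum-free medium with EGF, FGF10, Wnt3A and the ROCK inhibitor Y-27632, and collected at passage 2 after 5 days (2 libraries used), 7, 10 or 14 days (3 each), or at passage 10 after 7 days (1 library). The tissue libraries were 3 of adult LG, whose age the labels do not give, 3 of embryonic LG at E17.5 (E17.5 LG, E giving the day of gestation) and 3 at E19.5. The labels give neither the number of animals pooled nor separate cultures or litters for the replicates, so p-values measure the spread between these libraries, which may be technical.

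Values are FPKM, a fragment count per kilobase of exon on a scale set for each library, in 1 table per library. The reads behind each value, recovered from the steps between low values, summed to between 5748410 and 9206906 in the 20 passage 2 and tissue libraries and to 24907350 in the passage 10 library. In adult LG replicates 1 and 2 the deposited scale was smaller than the recovered reads, by 2.38 and 2.23 times, against 0.83 to 1.13 times in the other 18 of the 20, and the 10 most abundant genes took up to 55.8% of the reads in adult LG and at most 8.09% elsewhere. The deposited scale instead followed a size factor, the median ratio of a library's reads to the average over 11668 genes. Size factor over scale was 0.941 to 1.07 of its mean in the 20 libraries, and 1.02 and 1.03 in adult LG replicates 1 and 2. Scaling to recovered reads departs from this size factor in those 2 libraries. For the members, comparisons with adult LG are therefore also described with values scaled to the recovered reads and with adult LG replicate 3 alone. An exact 0 may be a failed estimate: Gapdh was listed at 0 in all 20 libraries, and so were the epithelial genes Epcam and Krt8. Of 5338 genes with at least 10 FPKM in the passage 10 library, 577 were listed at 0 in all 20.

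Ligands of the GDNF family bind a GFRα co-receptor held on the membrane by a lipid anchor, and the pair then engages RET, whose kinase activates the MAP kinase and PI3 kinase pathways. GDNF prefers GFRα1, neurturin GFRα2, artemin GFRα3 and persephin GFRα4. In exocrine glands of the head neurturin, made by the gland, and GFRα2 on parasympathetic neurons are known for their part in gland innervation, while GDNF and RET are best known from the enteric nervous system and from branching of the ureteric bud.

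The promoters of Nrtn and Gdnf are shown because these 2 ligand genes lay on opposite sides when LGSC spheres were compared with LG. Each window runs from 250 bases before to 50 bases after the start of the gene in RefSeq (GRCm38.p6). It is written 5′ to 3′ on the strand of the gene, at chr17:56757499-56757798 on the minus strand for Nrtn and at chr15:7809798-7810097 on the plus strand for Gdnf. Capitals mark a match to either of 2 motifs on either strand, the TATA box letters TATAAA and the GC box letters GGGCGG, which do not overlap here.
Nrtn: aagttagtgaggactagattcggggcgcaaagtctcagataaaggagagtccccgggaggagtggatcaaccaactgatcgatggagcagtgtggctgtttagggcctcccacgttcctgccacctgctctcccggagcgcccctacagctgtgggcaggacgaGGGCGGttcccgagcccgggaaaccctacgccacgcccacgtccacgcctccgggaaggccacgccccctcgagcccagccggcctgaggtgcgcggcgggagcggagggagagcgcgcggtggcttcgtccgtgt
Gdnf: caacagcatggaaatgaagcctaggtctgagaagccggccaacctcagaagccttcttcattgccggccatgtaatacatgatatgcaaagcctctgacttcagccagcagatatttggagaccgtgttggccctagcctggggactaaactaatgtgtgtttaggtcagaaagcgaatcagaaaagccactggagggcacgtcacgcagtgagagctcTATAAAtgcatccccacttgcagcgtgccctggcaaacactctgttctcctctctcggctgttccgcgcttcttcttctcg
The Nrtn window held 1 GC box match and no TATA box match, and the Gdnf window held 1 TATA box match and no GC box match. Of 32851 promoter windows of the same length, 13.6% held the TATA box letters and 35.7% the GC box letters. Matched windows were found for 5 of the 8 members. A second Gdnf window held neither motif.

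Nrtn was the most abundant member in every library of the 20. It was measured at 190, 233 and 281 FPKM in adult LG, at 136, 139 and 157 FPKM in E17.5 LG, and at 167, 190 and 214 FPKM in E19.5 LG. Spheres of day 5 held 79.1 and 72.3 FPKM, those of day 7 66.0, 44.4 and 52.8, those of day 10 55.2, 63.5 and 72.0, and those of day 14 57.4, 45.3 and 57.3. All 11 passage 2 LGSC libraries lay below all 9 tissue libraries on the deposited scale. By group mean the order was adult LG (235 ± 45.3, SD, n = 3), E19.5 LG (190 ± 23.6), E17.5 LG (144 ± 11.3), LGSC day 5 (75.7 ± 4.76, n = 2), day 10 (63.6 ± 8.37), day 7 (54.4 ± 10.9) and day 14 (53.3 ± 6.97). Adult and E19.5 LG overlapped, and so did days 10, 7 and 14.

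Gdnf had the opposite pattern, low in tissue and readily measured in spheres. It was listed at 0, 0 and 0.0747 FPKM in adult LG, the last value resting on 2 reads, and at 0.293, 1.03 and 0.499 FPKM in E17.5 LG and 0.391, 0.317 and 0.436 FPKM in E19.5 LG. Spheres of day 5 held 2.55 and 2.31 FPKM, those of day 7 3.29, 6.38 and 4.49, those of day 10 1.10, 4.14 and 3.62, and those of day 14 1.28, 2.08 and 3.29. The lowest passage 2 sphere library was above the highest tissue library, while the 4 culture days formed a chain of overlapping ranges in the order of their means (day 7, 10, 5 and 14). Artn stayed at or below 0.321 FPKM, at most 6 reads, in all 20 libraries, and its groups overlapped at every step of their order.

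**Figure D1:**
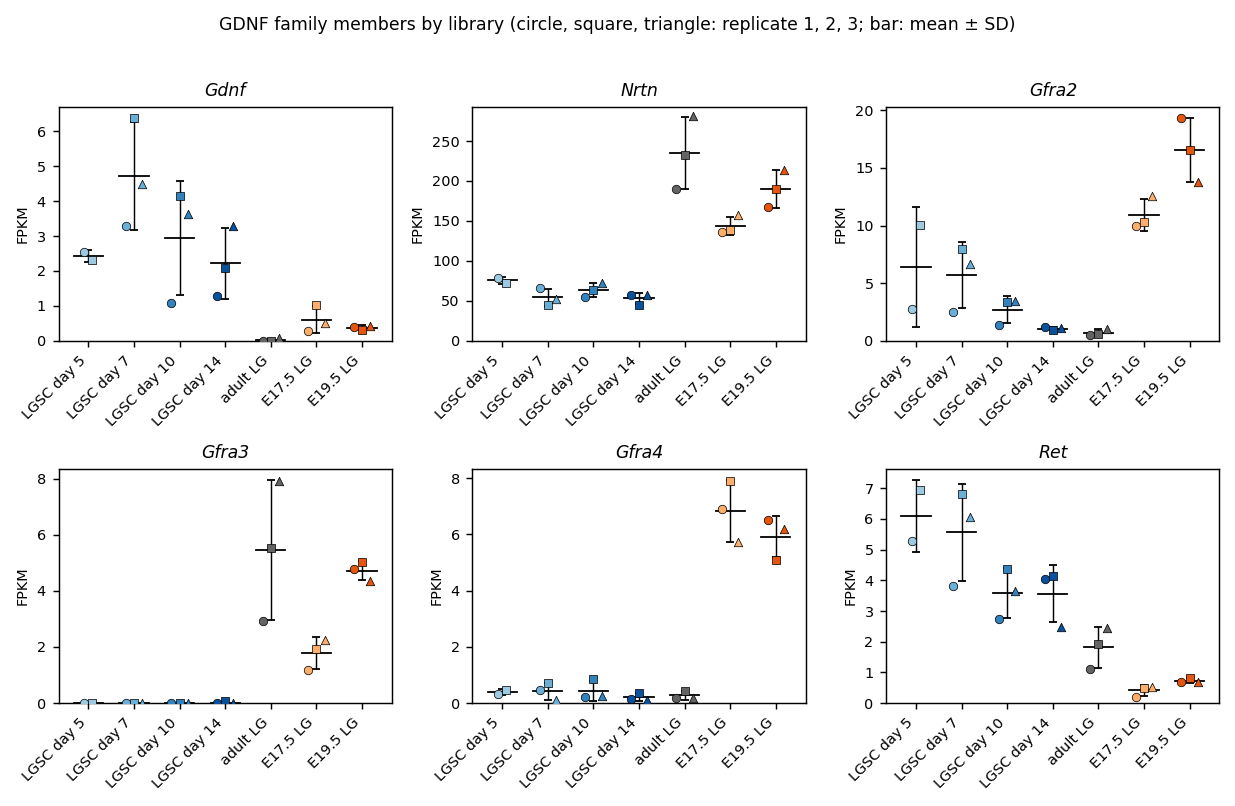
FPKM (vertical axes, from 0) of the 6 members that averaged 0.5 FPKM or more over 20 libraries, by group, with 1 point per library and the mean ± SD. Gdnf and Ret were higher in the LGSC groups than in the tissues, Nrtn and Gfra3 were lower there, and Gfra4 was above 5 FPKM in the 6 embryonic libraries alone.

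Gfra2, the co-receptor that neurturin prefers, was highest in embryonic LG and lowest in adult LG. It was measured at 9.95, 10.3 and 12.5 FPKM in E17.5 LG, at 19.4, 16.5 and 13.8 FPKM in E19.5 LG, and at 0.479, 0.638 and 1.02 FPKM in adult LG, where the values rest on 4, 7 and 27 reads. Spheres of day 5 held 2.75 and 10.1 FPKM, those of day 7 2.5, 7.94 and 6.71, those of day 10 1.34, 3.34 and 3.47, and those of day 14 1.23, 0.909 and 1.08. Replicate 1 was the lowest library of its group at days 5, 7 and 10. Day 14 overlapped adult LG and lay below the other 3 culture days, whose ranges overlapped, and E17.5 LG overlapped LGSC day 5 only at its edge (9.95 against 10.1 FPKM).

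The values that led to the choice of the set were 5.72 ± 2.86 FPKM (SD, n = 3) of Gfra2 at day 7 and 1.07 ± 0.161 FPKM (n = 3) at day 14, means that differ 5.33-fold, with no overlap between the 3 libraries of each day. In the same libraries Gdnf went from 4.72 ± 1.56 to 2.22 ± 1.01 FPKM, with ranges that just missed each other (3.29 FPKM being the lowest at day 7 and the highest at day 14). Ret went from 5.56 ± 1.57 to 3.56 ± 0.926 FPKM and Nrtn from 54.4 ± 10.9 to 53.3 ± 6.97 FPKM, both with overlap. Gfra4 (0.42 ± 0.304 and 0.21 ± 0.135 FPKM) and Artn (0.15 ± 0.101 and 0.125 ± 0.118 FPKM) overlapped as well.

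Gfra3, the artemin co-receptor, was a tissue gene in these data. It was listed at 0 in 10 of the 11 passage 2 LGSC libraries and had 1 read in the other, day 14 replicate 2. In adult LG it was 2.91, 5.54 and 7.90 FPKM, in E17.5 LG 1.16, 1.93 and 2.26 FPKM, and in E19.5 LG 4.77, 5.03 and 4.35 FPKM. Adult LG was spread around E19.5 LG, and all E17.5 libraries lay below both.

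Gfra4, the co-receptor paired with persephin, separated embryonic LG from every other group. It was 6.89, 7.91 and 5.71 FPKM in E17.5 LG and 6.5, 5.09 and 6.18 FPKM in E19.5 LG. Adult LG held 0.191, 0.437 and 0.182 FPKM, from 1, 3 and 3 reads, and the 11 LGSC libraries held 0.103 to 0.84 FPKM from 2 to 14 reads. E17.5 and E19.5 LG overlapped, and so did adult LG and the culture days. A microRNA gene on the same strand, Mir6973b, overlaps 80 exonic bases of Gfra4 in GENCODE M21. Gfra1, the GDNF co-receptor, had 0 to 3 reads in the LGSC libraries and was listed at 0 in all 9 tissue libraries. No fold between these groups is given for it, and an antisense gene (Gm16277) overlaps 416 of its 5476 exonic bases.

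Ret, the signalling receptor shared by the family, was highest in LGSC spheres. Spheres of day 5 held 5.27 and 6.93 FPKM, those of day 7 3.80, 6.81 and 6.08, those of day 10 2.72, 4.38 and 3.66, and those of day 14 4.05, 4.14 and 2.49. Adult LG held 1.10, 1.91 and 2.44 FPKM, E19.5 LG 0.676, 0.822 and 0.697, and E17.5 LG 0.209, 0.491 and 0.536. Every passage 2 sphere library was above every tissue library, by a narrow margin between day 14 replicate 3 (2.49) and adult LG replicate 3 (2.44), and the 3 tissue groups did not overlap with each other on the deposited scale. The culture days overlapped in the order of their means.

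FPKM is per length, so the levels of Gfra2 and Ret are set beside each other in a library, as a description. Low values above 0 may also be failed estimates for some genes. In E17.5 LG, for example, the collagen genes Col1a2 and Col1a1 averaged 8.79 and 2011 FPKM. A loss of reads for 1 gene of a pair would change the ratios below, and was not tested. The FPKM of Gfra2 was 21.1 to 47.6 times that of Ret in E17.5 LG and 19.7 to 28.6 times in E19.5 LG. It was 0.334 to 0.434 times that of Ret in adult LG, 0.22 to 0.433 times in LGSC day 14 and 0.491 to 1.46 times in the other LGSC libraries. By these values embryonic LG held Gfra2 mRNA with little Ret mRNA, and spheres and adult LG held the reverse or similar levels. The FPKM of Nrtn was 8.62 to 15.5 times that of Gfra2 in the 6 embryonic libraries, 5.59 to 53.2 times in spheres and 275 to 398 times in adult LG.

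E17.5 LG was compared with adult LG by limma on log2(FPKM + 1) in a fit of the 9 tissue libraries, to ask how the members differ between the developing and the mature gland. Because of the added 1, a difference on this scale is smaller than the true one for low genes. Of the 5 members that averaged 0.5 FPKM or more over these libraries, Gfra2 rose by a log2 fold change of 2.81 (SE 0.18, adjusted p = 6.18e-06) and Gfra4 by 2.62 (SE 0.16, adjusted p = 4.98e-06) in E17.5 LG. Gfra3 was lower by a log2 fold change of -1.16 (SE 0.29, adjusted p = 0.0093) and Ret of -0.98 (SE 0.20, adjusted p = 0.00309), and scaled to recovered reads neither passed (-0.53, adjusted p = 0.321, and -0.56, adjusted p = 0.122). Nrtn was lower by -0.69 (SE 0.18, adjusted p = 0.011) on the deposited scale and at 0.18 (adjusted p = 0.708) scaled to recovered reads, so its direction depends on the scale. Thus 5 members passed on the deposited scale, beside 54.0% of all 18578 genes tested. Scaled to recovered reads 2 passed (Gfra2 at 3.08 and Gfra4 at 2.81), beside 10073 of all 17620 genes tested. Gfra4 reached the filter only through embryonic LG, in which it was high. With adult LG replicate 3 alone, all 5 kept their direction. The log2 fold changes were 2.56 for Gfra2, 2.72 for Gfra4, -1.70 for Gfra3, -1.29 for Ret and -0.96 for Nrtn. Limma-voom on the recovered reads also called 5, beside 4255 genes higher and 3429 lower of 14601. Limma-voom took the deposited scale as library size, so it says nothing on the choice of scale.

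The scaling moved the median log2 fold change of all genes from 0.05 to 0.56 in this comparison, from 0.09 to 0.51 for E19.5 LG against adult LG and from -0.04 to 0.46 for LGSC spheres against adult LG. The split of passing genes moved with it, from 5405 higher and 4634 lower to 7942 and 2131, from 5637 and 4440 to 7521 and 2098, and from 3000 and 4122 to 5246 and 2284. On the count of reads, Gfra4 had 380 reads in E17.5 LG and 7 in adult LG, a ratio per deposited scale of 28.2 with a 95% exact interval of 13.6 to 70.6. Gdnf, under the filter here, had 57 and 2 reads, a ratio of 14.8 (3.92 to 125). Such intervals cover counting error only.

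**Figure D2:**
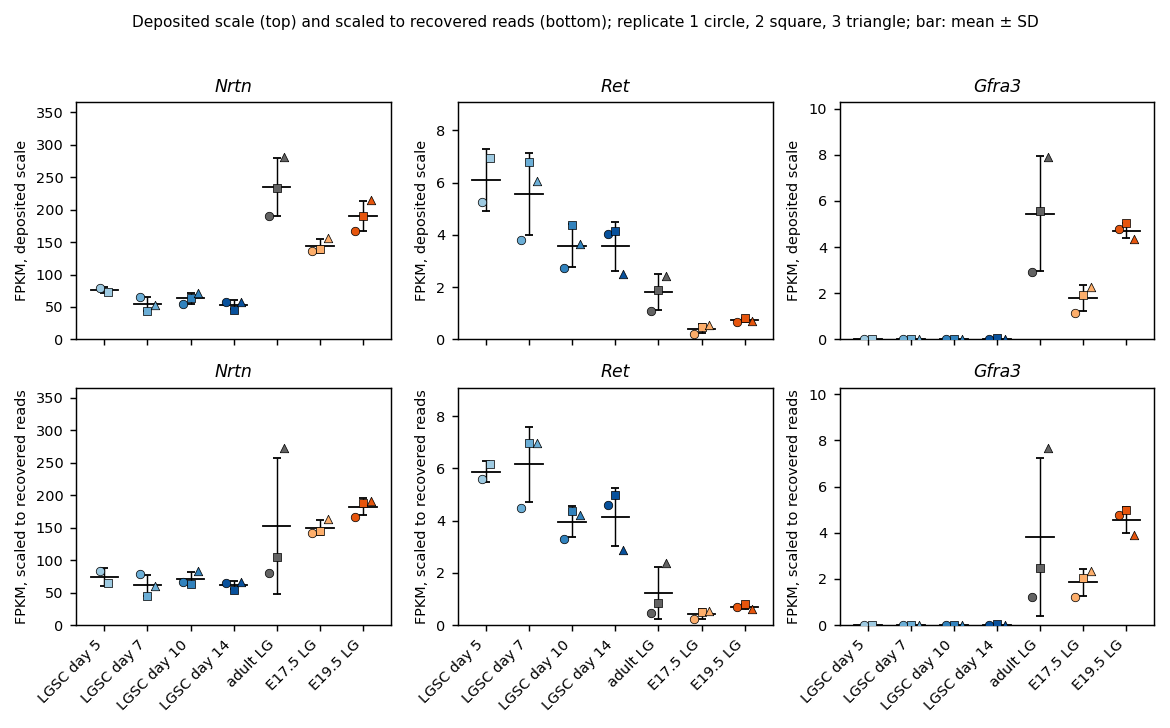
Nrtn, Ret and Gfra3 by library on the deposited FPKM scale (upper row) and scaled to recovered reads (lower row), with the mean ± SD per group and the same vertical range in both rows. Scaled to recovered reads, Nrtn in adult LG replicates 1 and 2 was 79.9 and 105 against 273 in replicate 3, and adult LG then spanned both embryonic groups.

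E19.5 LG was compared with the same adult libraries in the same fit, so these 2 comparisons share their controls. Gfra2 was higher by a log2 fold change of 3.36 (SE 0.18, adjusted p = 2.72e-06) and Gfra4 by 2.45 (SE 0.16, adjusted p = 8.34e-06). Ret was lower by -0.67 (SE 0.20, adjusted p = 0.0187), a call that ended scaled to recovered reads (-0.30, adjusted p = 0.401) and without E19.5 LG replicate 1, E19.5 LG replicate 3 or adult LG replicate 2 (adjusted p of 0.0546, 0.0546 and 0.054). Nrtn (-0.29, adjusted p = 0.198) and Gfra3 (-0.10, adjusted p = 0.798) did not pass, and both turned positive scaled to recovered reads (0.46 and 0.44). Gfra2 and Gfra4 were at 3.53 and 2.53 scaled to recovered reads (adjusted p of 9.44e-06 and 8.79e-06). With adult LG replicate 3 alone the log2 fold changes were 3.10 for Gfra2, 2.54 for Gfra4, -0.99 for Ret, -0.57 for Nrtn and -0.64 for Gfra3. The 3 members that passed stand beside 54.2% of all genes.

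Between E19.5 and E17.5 LG, 2 days of gland growth apart, no member passed limma's adjusted test, where 1.74% of 18578 genes did. The largest difference was that of Gfra3, a log2 fold change of 1.06 (SE 0.29, 95% interval 0.39 to 1.72, adjusted p = 0.123), which passed when only these 6 libraries were fitted (adjusted p = 0.0147). Gfra2 differed by 0.55 (0.14 to 0.96, adjusted p = 0.19), Ret by 0.30 (-0.15 to 0.75), Nrtn by 0.39 (-0.01 to 0.80) and Gfra4 by -0.18 (-0.55 to 0.19). At an unadjusted p under 0.05, 2 of the 5 members passed beside 2841 of all 18578 genes, and limma-voom on the recovered reads called 0.

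Within culture, day 10 was compared with day 5, which the choice of the set did not use. Limma called 0 of 15363 genes, a share of 0%, with 748 at an unadjusted p under 0.05, and limma-voom on recovered reads also called 0. Gfra2 differed by a log2 fold change of -0.85 (SE 0.55, 95% interval -2.24 to 0.53), Ret by -0.64 (SE 0.26, -1.29 to 0.01), Nrtn by -0.26 (-0.73 to 0.22) and Gdnf by 0.10 (-0.99 to 1.20). Both day 5 libraries of Ret (5.27 and 6.93 FPKM) lay above the 3 of day 10, whereas the day 5 libraries of Gfra2 (2.75 and 10.1 FPKM) spanned all but the lowest of them. By replicate number, Gfra2 at days 5 and 10 was 2.75 and 1.34 FPKM in replicate 1 and 10.1 and 3.34 in replicate 2. The intervals include differences of more than a log2 unit for Gfra2, Ret and Gdnf, so none was resolved with 2 libraries against 3.

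LGSC spheres at days 5 and 10 were then compared with adult LG, their tissue of origin, in a fit of 8 libraries, and 5 members reached the filter and passed, beside 40.7% of 17481 genes. Gdnf and Gfra3 reached it only through the group in which they were high, so this count is no support for a difference of the set. Gdnf was higher by a log2 fold change of 1.79 (SE 0.31, adjusted p = 0.00285). On the count of reads it had 387 reads in the 5 sphere libraries and 2 in adult LG, a ratio of 63.1 with a 95% exact interval of 17.4 to 523. Ret was higher by 1.03 (SE 0.24, adjusted p = 0.0105) and Gfra2 by 1.5 (SE 0.39, adjusted p = 0.0189). The call of Gfra2 ended without adult LG replicate 1 or 2 (adjusted p of 0.0679 and 0.0646). Scaled to recovered reads, the log2 fold changes were 1.83 for Gdnf (adjusted p = 0.00235), 1.47 for Ret (0.00579) and 1.75 for Gfra2 (0.00789). Gfra3 was then at -2.02 (0.00502).

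Nrtn was lower in the spheres by a log2 fold change of -1.73 (SE 0.20, adjusted p = 0.000447), and scaled to recovered reads it kept its direction but did not pass (-0.86, adjusted p = 0.0951). Gfra3, with a fitted value of -2.61 (adjusted p = 0.000278), was listed at 0 in the 5 sphere libraries. Against a floor of 3 reads per library, which averages 0.188 FPKM, it was at least 29.0-fold lower than in adult LG. With adult LG replicate 3 alone, 2 of these 5 members passed (Gfra3, and Nrtn at -2.01, adjusted p = 0.00413), while Gfra2 (1.25, adjusted p = 0.308), Ret (0.72, adjusted p = 0.157) and Gdnf (1.72, adjusted p = 0.112) kept their direction and did not pass.

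Against E17.5 LG, 6 members reached the filter and all 6 passed, beside 44.5% of 17138 genes, and this comparison does not rest on adult LG. Gfra3, Gfra4 and Ret reached the filter only through the group in which they were high, so that 6 of 6 passed is no support for a difference of the set. Ret was higher in spheres by a log2 fold change of 2.01 (SE 0.17, adjusted p = 8.3e-05), a ratio of mean FPKM of 11.8, and Gdnf by 1.17 (SE 0.32, adjusted p = 0.0211). Nrtn was lower by -1.04 (SE 0.12, adjusted p = 0.000311), a mean 2.07 times lower, and Gfra4 by -2.47 (SE 0.18, adjusted p = 3.61e-05). Gfra3 was lower with a fitted value of -1.46 (adjusted p = 0.000186) and by at least 9.49-fold against the floor. Gfra2 was lower by -1.31 (SE 0.38, adjusted p = 0.0274). With 1 library fewer some calls ended while the folds stayed close. Gfra2 did not pass when E17.5 LG replicate 1, 2 or 3 was left out, at log2 fold changes of -1.37, -1.34 and -1.22 (adjusted p of 0.0736, 0.0773 and 0.101). Gdnf did not pass without E17.5 LG replicate 1 or 3 or LGSC day 5 replicate 1, at 1.02, 1.13 and 1.14 (0.089, 0.0778 and 0.0525). Gfra3 fell under the filter without E17.5 LG replicate 2 or 3.

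**Figure D3:**
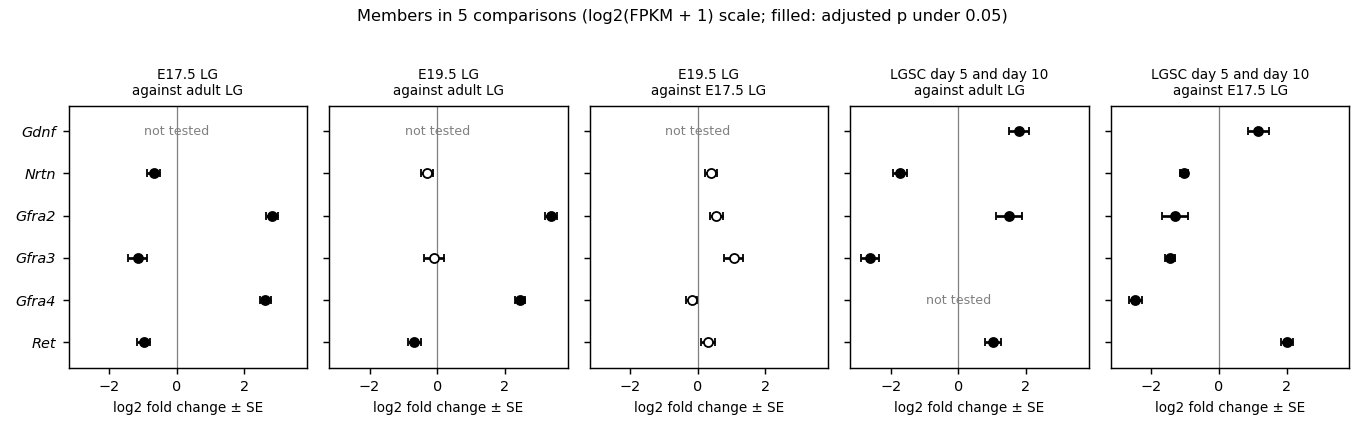
Log2 fold change ± SE (horizontal axes, log2(FPKM + 1) scale) of 6 members in 5 comparisons, filled where limma's adjusted p was under 0.05, on the deposited scale. Gfra2 was higher in E17.5 LG, E19.5 LG and LGSC spheres than in adult LG, Gdnf and Ret were higher and Nrtn and Gfra3 lower in spheres than in either tissue, and the values of Nrtn, Ret and Gfra3 in embryonic against adult LG change with the scaling.

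Markers of other cells moved with these groups. In tissue homogenates fewer cells of a type and less RNA per cell cannot be told apart. The summed level of 8 mesenchymal markers was 4907 to 5768 FPKM in E17.5 LG, 4886 to 5860 in E19.5 LG, 171 to 345 in adult LG and 0.529 to 3.49 in LGSC spheres. Of the 8, 7 were tested and higher in E17.5 than in adult LG, where 54.0% of all genes passed. Col1a2 and Pdgfra among them reached the filter only through embryonic LG. Of 14 autonomic neuron markers, 4 were tested and higher in E17.5 LG (Phox2a, Slc5a7, Snap25 and Tubb3). All 4 reached the filter only through embryonic LG, so this count is no support for a difference of the list. The summed level of the 14 was 5.89 to 8.92 FPKM in E17.5 LG, 4.66 to 5.92 in E19.5 LG and 0.266 to 0.444 in adult LG. In spheres that sum ranged from 0.524 to 143 FPKM and Tubb3, one of the 14, from 0.18 to 143 FPKM. The neuronal genes Slc18a3, Slc5a7, Vip, Th and Elavl4 were listed at 0 in all 11 passage 2 LGSC libraries, and Prph in those and in all 9 tissue libraries. Chrna3 averaged 0.375 FPKM in day 5 spheres and 0.0479 FPKM in E17.5 LG, and Stmn2 0.145 and 0.0225 FPKM. The 8 Schwann cell markers summed to 53.2 to 61.8 FPKM in E17.5 LG, 45.2 to 54.7 in E19.5 LG, 16.1 to 35.6 in adult LG and 11.5 to 23.3 in spheres, but Sox10 and Erbb3 were listed at 0 in all 20 libraries.

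Endothelial markers (5 genes) summed to 43.4 to 130 FPKM in adult LG, 122 to 188 in embryonic LG and at most 0.255 in spheres. Leukocyte markers (5 genes) summed to 6.55 to 9.36 FPKM in adult LG, 1.27 to 1.77 in embryonic LG and at most 0.126 in spheres. Skeletal muscle markers (5 genes) summed to 6.79 to 13.0 FPKM in E17.5 LG and at most 1.72 in adult LG. Epithelial markers (7 genes) summed to 758 to 1085 FPKM in adult LG, 330 to 472 in E17.5 LG, 759 to 950 in E19.5 LG and 550 to 2633 in spheres, with Epcam and Krt8 listed at 0 throughout. Krt18 and Cdh1 made up most of this sum. Krt18 averaged 758 FPKM in adult LG and 229 in E17.5 LG, whereas Cdh1 averaged 136 and 150 FPKM. Acinar markers (6 genes) summed to 51.4 to 143 FPKM in adult LG and at most 58.7 elsewhere, with the acinar regulator Bhlha15 listed at 0 in every group. Slc12a2 made up most of this sum, with means of 85.2 FPKM in adult LG and 36.1 in day 14 spheres. Aqp5 (0.512 FPKM), Ltf and Prol1 also had their highest mean in adult LG. Lcn2 averaged 6.16 FPKM in day 14 spheres and 2.58 in adult LG. Myoepithelial markers (5 genes) summed to 121 to 611 FPKM in adult LG, 140 to 298 in E17.5 LG, 1012 to 1098 in E19.5 LG and 1.02 to 181 in spheres. Acta2 made up most of that sum, with a mean of 1047 FPKM in E19.5 LG, whereas Cnn1 averaged 38.1 FPKM in adult LG, 1.21 in E17.5 LG and 3.97 in E19.5 LG. The part of these cells in the members' differences was not tested.

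Other ligands and co-receptors of the family and its relatives were described by a list of 7 genes. In E17.5 against adult LG 5 were tested, 2 were higher and 1 lower, with a list median log2 fold change of 0.94 beside 0.05 for all genes, of which 54.0% passed. Gas1, a membrane protein related to the GFRα co-receptors, was 90.7 ± 9.03 FPKM (SD, n = 3) in E17.5 LG and 9.85 ± 7.96 in adult LG, a log2 fold change of 3.31 (SE 0.43, adjusted p = 0.000295). Ncam1, a cell adhesion molecule that can bind GDNF with GFRα1, was higher by 2.68 (adjusted p = 6.66e-06) and reached the filter only through embryonic LG. Gdf15, a ligand of the related co-receptor GFRAL, was lower by -2.29 (adjusted p = 0.00247) but did not pass scaled to recovered reads (-1.5, adjusted p = 0.0516). In E19.5 LG the count was again 2 higher and 1 lower of 5, beside 54.2% of all genes, with Gas1 at 3.50 (adjusted p = 0.000236). Ncam1 was lower in E19.5 than in E17.5 LG by -0.95 (adjusted p = 0.0394), a call that ended in 12 alternatives (adjusted p between 0.0566 and 0.302), each of the 6 that left out 1 embryonic library among them.

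In LGSC spheres Ncam1 was higher than in adult LG by a log2 fold change of 1.42 (adjusted p = 0.0156). It reached the filter only through the spheres and was the 1 of 5 tested genes of this list that passed, beside 40.7% of all genes. That call ended without adult LG replicate 1 or 2 (adjusted p of 0.0545 and 0.0626) and with replicate 3 alone (0.295). Against E17.5 LG 2 were higher and 2 lower of 5, beside 44.5% of all genes. Gdf15 was higher by 2.62 (adjusted p = 0.000687) and Sdc3, a heparan sulfate proteoglycan that binds GDNF, by 1.10 (adjusted p = 0.00232, and 0.0546 with all 20 libraries in 1 fit). Gas1 was lower by -2.62 (adjusted p = 0.00133) and Ncam1 by -1.26 (adjusted p = 0.0199), the latter not passing without any 1 of the E17.5 libraries (0.0726, 0.0706 and 0.0586). Pspn (persephin) passed in none of the 6 comparisons, and ranged from 0 to 3.94 FPKM with at most 18 reads.

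RET adaptors and effectors, the proteins that dock on the phosphorylated receptor or act just below it, were a list of 18 genes. Of 12 tested, 5 were higher and 1 lower in E17.5 than in adult LG, with a median of 0.25 beside 0.05. That count is near the 54.0% of all genes that passed. Grb10, an adaptor that binds receptor tyrosine kinases, was 202 ± 19.0 FPKM in E17.5 LG, 146 ± 6.76 in E19.5 LG, 5.30 ± 3.85 in adult LG and at most 0.762 in any LGSC library. Its log2 fold change was 5.17 in E17.5 against adult LG (adjusted p = 7.78e-06) and -7.30 in spheres against E17.5 LG (SE 0.18, adjusted p = 2.15e-07). Dok4, a docking protein of RET, was higher in E17.5 LG by 1.73 (adjusted p = 0.000652). Dok5, of the same family, was 2.26 ± 0.435 FPKM in E17.5 LG and listed at 0 in all 3 adult libraries (adjusted p = 0.00012). It therefore reached the filter only through embryonic LG. Pik3r1, the regulatory subunit of PI3 kinase, was lower by -1.24 (adjusted p = 0.000269) and did not pass scaled to recovered reads (-0.39, adjusted p = 0.228).

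In spheres against adult LG, 2 of 11 tested adaptors were higher and 3 lower, with Dok4 at a log2 fold change of 2.42 (adjusted p = 0.00645, and 0.229 with adult LG replicate 3 alone), Grb10 at -2.14 (adjusted p = 0.00306) and Pik3r1 at -2.10 (adjusted p = 0.000449). Against E17.5 LG 1 of 12 was higher and 6 lower. Of all genes, 40.7% passed against adult LG and 44.5% against E17.5 LG. Grb10 reached the filter in both only through the tissue. Dok5, among the lower against E17.5 LG (-1.58, adjusted p = 0.000233), reached it there only through E17.5 LG. In E19.5 against E17.5 LG none of 12 passed, beside 1.74% of all genes, with 1 at an unadjusted p under 0.05.

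RET response genes, a list of 13 genes known to follow RET activity in the kidney, included feedback inhibitors and transcription factors that also follow FGF receptors. In E17.5 against adult LG 7 of 8 tested were higher and none lower, a median of 2.27 beside 0.05, and in E19.5 LG 7 were higher and 1 lower of 8, a median of 2.01 beside 0.09. Of all genes 54.0% and 54.2% passed in these comparisons, which share the adult libraries. Etv5, an ETS transcription factor, was 187 ± 7.08 FPKM in E17.5 LG, 104 ± 9.92 in E19.5 LG and 8.18 ± 5.47 in adult LG, a log2 fold change of 4.52 (SE 0.36, adjusted p = 1.84e-05) at E17.5. Spry4, a feedback inhibitor of receptor tyrosine kinases, was higher by 2.42 (adjusted p = 0.0002), and Sox8 and Myb by 2.32 (adjusted p = 3.7e-05) and 2.31 (adjusted p = 8.08e-06). Sox8, at 0.224 FPKM on average in adult LG, reached the filter only through embryonic LG. Dusp6, a phosphatase of the MAP kinase ERK, was higher in E19.5 LG by 2.76 (adjusted p = 0.000238). Ret mRNA itself was lower in these libraries on the deposited scale and did not pass scaled to recovered reads.

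In spheres, where Ret mRNA was higher than in E17.5 LG, most of the response genes tested were lower than in E17.5 LG. In that comparison 6 of 9 tested were lower and none higher, a median of -2.58 beside -0.05. Of all genes 44.5% passed, 3017 higher and 4616 lower. Spry4 and Sox8 reached the filter only through E17.5 LG. Whether Ret mRNA and these levels are linked was not tested. Spry4 was 0 to 0.394 FPKM in the LGSC libraries and 22.7 ± 0.369 FPKM in E17.5 LG, a log2 fold change of -4.50 (SE 0.10, adjusted p = 1.38e-07). Dusp6 was lower by -3.82 (adjusted p = 0.001), Cxcr4, a chemokine receptor, by -3.59 (adjusted p = 0.000326) and Spry2 by -2.98 (adjusted p = 0.000204). Against adult LG 2 of 7 were higher and 3 lower, beside 40.7% of all genes that passed. Spry4, among the lower, reached the filter there only through adult LG. Etv5 was among the higher at 1.95 (adjusted p = 0.0246), with overlapping groups. The call of Etv5 ended in 5 alternatives (adjusted p between 0.051 and 0.454), without adult LG replicate 1 or 2, LGSC day 5 replicate 1 or LGSC day 10 replicate 3 and with adult LG replicate 3 alone. The culture medium held EGF and FGF10, and its part in these levels was not tested.

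None of the 10 transcription factor genes listed as acting upstream of Gdnf or Ret reached 0.5 FPKM on average in the 9 tissue libraries or in either sphere comparison. Of 8 neurotrophin and neurotrophin receptor genes, 4 were tested in E17.5 and in E19.5 against adult LG, comparisons that share the adult libraries. All 4 were higher in each, with list medians of 1.60 and 1.67 beside 0.05 and 0.09 for all genes, of which 54.0% and 54.2% passed. Bdnf and Ntrk3, at 0.149 and 0.442 FPKM on average in adult LG, reached the filter only through embryonic LG. That all 4 passed is therefore no support for a difference of the list. Ngfr, the p75 neurotrophin receptor, was 50.8 ± 4.73 FPKM in E17.5 LG and 2.64 ± 2.79 in adult LG, a log2 fold change of 4.08 (SE 0.43, adjusted p = 8.56e-05). Ntf3 (neurotrophin 3) was higher by 2.07 (adjusted p = 0.00173), Bdnf by 1.13 (adjusted p = 0.00082) and Ntrk3, the neurotrophin 3 receptor, by 1.03 (adjusted p = 0.00221). In spheres Ntf3 was lower than in E17.5 LG by -3.37 (adjusted p = 0.00206) and Ntrk3 by -1.29 (adjusted p = 0.000591), 2 of 4 tested, beside 44.5% of all genes. Ntrk3 reached the filter there only through E17.5 LG. Ngfr was higher in spheres than in adult LG by 2.63 (adjusted p = 0.0248), with overlapping groups. The call of Ngfr ended in 5 alternatives (adjusted p between 0.0616 and 0.473), among them those without adult LG replicate 1 or 2 or LGSC day 5 replicate 1.

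Genes with the most similar pattern were ranked by Pearson's r of log2(FPKM + 1) over the 20 libraries among 13689 genes, as a description in which the libraries of a group count as separate points. For Gfra2 they were an assembled locus without a name (r = 0.95), Wdhd1 (0.94) and Lin9 (0.94). Over the 11 passage 2 LGSC libraries alone they were Eprs (0.95), Eif3j1 (0.95) and Strn4 (0.95). For Gfra3 they were Fcgr2b, C3ar1 and Ly86 (each 0.99), and for Gfra4 Arsj, Adamts17 and Crtac1 (each 0.99). For Ret they were Ces2e (0.97), Srxn1 (0.96) and Cep170b (0.95), for Gdnf Bnc1, Gm20744 and Fam89a (0.94, 0.93 and 0.93), and for Nrtn Tmem204, Adh1 and Fam167b (0.98, 0.97 and 0.97).

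The passage 10 library, cultured for 7 days and listed against another set of genes, had no replicate and entered no test. Artn was 4.35 FPKM there, from 249 reads, against 0.0898, 0.266 and 0.0929 FPKM in passage 2 spheres at day 7. The ratio of reads per deposited scale was 30.3, with a 95% exact interval of 15.7 to 67.0 that compares these libraries and not the passages. Ret was 0.106 FPKM against 3.80 to 6.81 and Nrtn 8.18 FPKM against 44.4 to 66.0, both below every passage 2 library. Gdnf at 3.87 FPKM and Gfra2 at 2.66 FPKM lay within the passage 2 values of day 7, and so did Gfra4 at 0.117 FPKM, while Gfra3 was listed at 0 in each. Gfra1 was 0.177 FPKM from 23 reads, against 4 reads in the 3 passage 2 libraries of day 7, a ratio of 6.29 (2.15 to 25.0). Gapdh, listed at 0 in the other 20 libraries, was 3.0 FPKM in this one.

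**Figure D4:**
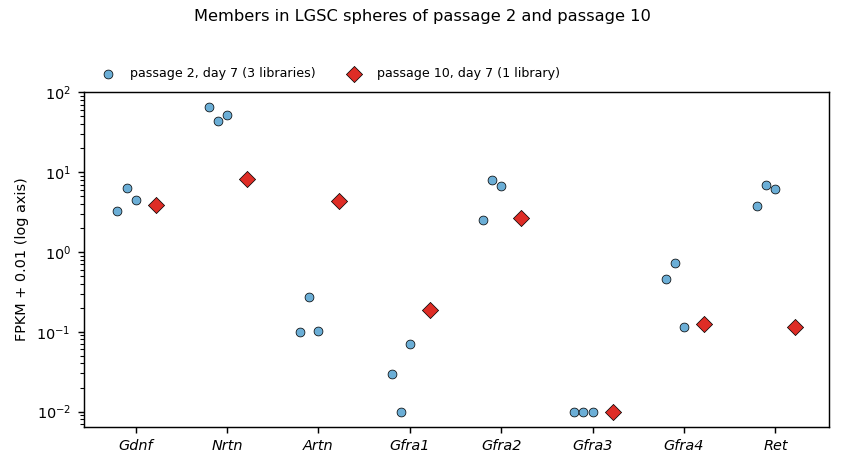
FPKM + 0.01 on a log axis of the 8 members in 3 passage 2 libraries (circles) and the passage 10 library (diamonds) of LGSC spheres at day 7. Artn and Gfra1 lay above the 3 passage 2 libraries at passage 10, Ret and Nrtn below them, and Gdnf, Gfra2 and Gfra4 among them.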

How the data were processed

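Libraries of poly-A RNA were made with the NEBNext Ultra kit. The submitters' processing notes name CASAVA 1.8, HISAT2 2.0.5, featureCounts 1.5.0-p3 and the build NCBIM37. The authors deposited 1 table per library, read here as FPKM from the size and steps of the values. The step that made them, the use of strand and the annotation are not given in the sources used here. Of the 52636 Ensembl identifiers 52489 were in GENCODE M21, which gave symbols and exon lengths, and no gene coordinates were printed from it. Of 24 samples, 21 were used. A day 5 replicate and passages 6 and 20 were not analysed here.

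Groups came from the sample titles. The members, gene lists and tests were chosen with earlier results of these data known. Reads were recovered by dividing by the value of 1 read, and 92.6% to 93.6% of values of up to 1000 reads came out whole to within 0.01 reads. The step of 1304 genes was corrected by 1 factor each. Tests used limma 3.58.1 (lmFit, eBayes with trend, R 4.3.3) on log2(FPKM + 1) for genes averaging 0.5 FPKM or more over the fitted libraries, with Benjamini-Hochberg adjustment over all genes and a threshold of 0.05. The fits were checked on simulated data. A gene with no reads has a floor of 3 reads per library, and ratios of reads have exact binomial intervals. All members were named, with at most 4 passing genes per list and comparison by size of change, described in part, and the 3 genes of most similar pattern. In the comparison of days 5 and 10 with a tissue, the 2 days had equal weight. Tables and figures used Python 3.11.15, pandas 2.3.3 and matplotlib 3.10.9.

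Alternatives were a pseudocount of 0.1, no filter, the replicate number as a block, scaling to recovered reads, limma-voom with and without the block, other sets of libraries in the fit and each replicate left out. Adult LG replicate 3 alone was added after seeing the data.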

Additional observations from a re-analysis of the deposited data

Results flagged for a closer look

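Both flagged values come from the passage 10 library, which entered no comparison with a test. Artn was 4.35 FPKM and Gfra1 0.177 FPKM there, each above the highest of the 11 passage 2 LGSC libraries, 0.307 and 0.0619 FPKM, and above 3 reads. With 1 library and another gene list, the difference between passages was not tested.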

How the results depend on the processing

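Scaled to recovered reads, 2 of the 5 members that passed in E17.5 against adult LG still passed, beside 10073 of all 17620 genes tested. Nrtn turned from -0.69 to 0.18 (log2 fold change). Pik3r1, a gene of the adaptor list, turned from -0.73 to 0.0131 in E19.5 against adult LG. Fitting only the 2 groups gave 1 passing member in E19.5 against E17.5 LG, in place of 0. With adult LG replicate 3 alone, 2 members passed in LGSC spheres against adult LG, in place of 5, with 3635 in place of 7122 genes in all. There the lone adult library is assumed to vary like the other groups. Leaving out each replicate in turn gave 5 to 5 passing members in E17.5 against adult LG, 2 to 3 in E19.5 against adult LG, 0 to 0 in both E19.5 against E17.5 LG and day 10 against day 5, 4 to 5 in spheres against adult LG and 3 to 6 in spheres against E17.5 LG. Of all 18578 genes in E19.5 against E17.5 LG, 323 passed, against 162 with a pseudocount of 0.1, 177 scaled to recovered reads, 2144 with only the 2 groups and 50 to 197 without 1 replicate. The cause was not tested.

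With the replicate number as a block, the same counts of members passed as without it (5, 3, 0, 0, 5 and 6 in the 6 comparisons), and 100 of all genes passed in E19.5 against E17.5 LG. In the comparisons where members passed, 5104, 5332, 2764 and 2788 of all genes were higher with the block. In the same order, 4386, 4194, 3971 and 4353 were lower. The numbers are not stated to mark a shared animal, litter or day. Same-numbered libraries correlated in their deviations at 0.434 and 0.45 between days 5 and 10 (2 pairs), and libraries of unlike number at -0.45 to 0.228. The deviations of the 2 day 5 libraries mirror each other by construction, so these pairs are not separate evidence. Between tissues the same-numbered libraries correlated at -0.079 to 0.062. Artn and Gfra1 had at most 6 and 3 reads in any of the 20 libraries, and their differences between the passage 2 and tissue groups were not detectable at these depths.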
